A study of Mus musculus with 96 samples.

Results

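Apoe and 9 other genes of lipid carriage, efflux and storage were followed in sorted mouse microglia, the resident macrophages of the brain. The 10 genes (Apoe, Lpl, Abca1, Abcg1, Ch25h, Plin2, Soat1, Nr1h2, Nr1h3 and Npc2) were found by their Ensembl identifiers among 54532 gene models, and each had 1 row. All mice were wild type, and the 96 libraries came from 48 animals, each with 1 hippocampus and 1 hemisphere library of 1000 sorted cells (Ly6C-negative, CD11b-positive, Fcrls-positive). Libraries fall into 16 groups by region (hippocampus or hemisphere), time (6 h or 48 h), age (old, 20 to 22 months, or young, 3 to 5 months) and treatment (abdominal surgery or control). Old surgery had 7 animals at 6 h and 9 at 48 h, old control had 8 at each time, and young surgery and young control had 4 each at each time. What the control animals underwent, and the sex of the animals, are not stated in the sources used here.

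Microglia carry cholesterol out on lipoprotein particles. Apolipoprotein E (Apoe) is the main protein of such particles in the brain, where astrocytes make most of it and microglia make more when activated. The transporters Abca1 and Abcg1 load cholesterol onto particles. Soat1 esterifies cholesterol for storage in lipid droplets, which Plin2 coats, Lpl releases fatty acids from lipoprotein triglycerides, and Npc2 binds cholesterol inside the lysosome. Ch25h makes the oxysterol 25-hydroxycholesterol, and Nr1h2 and Nr1h3 encode the liver X receptors LXR beta and LXR alpha, oxysterol-sensing transcription factors that switch on Abca1, Abcg1 and Apoe.

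The upstream 250 bases of Apoe, the member with the largest difference in these data, and of Abca1, a textbook LXR target, are shown because LXR is known to bind direct repeats of a hexamer with a spacer of 4 bases (DR4). The sequences are RefSeq's, on GRCm38.p6, each read 5′ to 3′ on the minus strand, the strand of both genes, and each ends at the base before the start of the gene. Apoe lies at chr7:19699189-19699438 and Abca1 at chr4:53159896-53160145. The capitals in Abca1 mark the closest match to the DR4 consensus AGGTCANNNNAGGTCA, read on the opposite strand as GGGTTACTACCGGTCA, at bases -67 to -52 from the gene's start.
Apoe: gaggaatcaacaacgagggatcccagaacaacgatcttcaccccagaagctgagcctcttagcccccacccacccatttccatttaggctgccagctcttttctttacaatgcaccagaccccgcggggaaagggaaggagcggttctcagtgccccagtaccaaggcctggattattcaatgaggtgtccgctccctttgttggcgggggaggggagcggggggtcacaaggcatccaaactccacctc
Abca1: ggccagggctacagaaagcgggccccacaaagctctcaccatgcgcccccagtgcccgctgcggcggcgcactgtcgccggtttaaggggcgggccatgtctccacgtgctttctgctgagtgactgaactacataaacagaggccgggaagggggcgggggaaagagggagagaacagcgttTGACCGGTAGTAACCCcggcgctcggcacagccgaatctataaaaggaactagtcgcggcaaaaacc

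The Abca1 match has 3 mismatches over the 12 fixed bases of the consensus. Searched on both strands, 18.5% of the 32851 RefSeq promoter windows of this length held a match with at most 3 mismatches, so such a match is common. The Apoe window held none that close, its best having 5 mismatches, which says nothing about LXR binding elsewhere. Of the 10 members, 8 had an entry in the promoter table, the 2 without one being Lpl and Abcg1.

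On mm10, in the GENCODE M21 annotation, Apoe spans chr7:19696109-19699188 on the minus strand with 2138 exon bases. The transporters lie at chr4:53030787-53159895 on the minus strand (Abca1) and chr17:31057675-31117988 on the plus strand (Abcg1). Lpl lies at chr8:68880491-68907448 on the plus strand, Npc2 at chr12:84754562-84773152, Soat1 at chr1:156424525-156474331 and Plin2 at chr4:86648386-86670060, the last 3 on the minus strand. Ch25h (chr19:34473778-34475164), Nr1h2 (chr7:44549616-44553951) and Nr1h3 (chr2:91184061-91202834) are on the minus strand too. Abcg1, Soat1 and Nr1h3 also overlap predicted gene models, and counts of overlapping models may be shared.

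Library totals ran from 1874168 to 3778939 deposited counts (median 2703893), of which the 15 largest gene models, mostly repeat-like or ribosomal, took 53.05% to 81.2%. Values are given as CPM, counts divided by a library size set by edgeR's TMM over all 96 libraries and multiplied by 1e6. All 10 microglial markers were detected, with a summed level of 3646 to 11640 CPM (median 6699) and a median of 452.9 CPM over the markers' means. The marker lists of the 10 other cell types had medians of 0.389 to 1.52 CPM over their markers' means. Their sums were higher in some libraries, with a median of 62.5 and a highest value of 1454 CPM for choroid plexus and a median of 184.1 and a highest of 584.2 CPM for border-associated macrophages. B cell markers reached 250.4 CPM, neutrophil markers 172.1 CPM and astrocyte markers 158.8 CPM in single libraries, from medians of 13.9, 0.948 and 53.9 CPM. In 6 libraries, all at 6 h, values of 1 were under 30% of the values from 1 to 3 and low counts thus ran in coarser steps. They were old surgery hippocampus replicates 5 and 6, young control hippocampus replicates 1 and 4, old surgery hemisphere replicate 6 and old control hemisphere replicate 7. Several of the results at 6 h, but not all, are given with and without them. An animal also stood apart for Apoe in both of its libraries. Young control replicate 2 at 48 h had 332.4 CPM of Apoe in hippocampus and 365.1 CPM in hemisphere, while the other 3 animals of its group had 77.97 to 116.3 CPM in hippocampus and 53.4 to 63.4 CPM in hemisphere. Age was also partly tied to the FACS numbers in the library names, whose meaning the labels do not state: those of 3 of 7 old surgery and 3 of 8 old control animals at 6 h, and of 3 of 9 old surgery and 4 of 8 old control animals at 48 h, lay within the range of the young ones. The p-values count each animal once per comparison and measure the spread between animals.

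Per kilobase of exon (GENCODE M21, same build), Apoe had the highest level of the 10 genes. Its median over 96 libraries was 79.4 CPM per kb, among the top 0.226% of gene models, and the quartiles over libraries were 56.05 and 124 CPM per kb. Npc2 followed at 19.3 CPM per kb, and Apoe exceeded Npc2, and Npc2 exceeded Abca1, in 96 of 96 libraries. The next 5 were close: Abca1 (5.70), Nr1h2 (5.36), Abcg1 (4.82), Soat1 (3.12) and Lpl (3.03), all in CPM per kb. Abca1 exceeded Nr1h2 in 59 of 96 libraries, Nr1h2 exceeded Abcg1 in 52, Abcg1 exceeded Soat1 in 72 and Soat1 exceeded Lpl in 50, so neighbours in that order overlapped. Plin2 had 1.92 CPM per kb and lay under Lpl in 83 libraries. Ch25h had 0.246 CPM per kb and Nr1h3 a median of 0, and these 2 alone failed the filter on low counts, leaving 8 members in every fit.

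Apoe differed most between groups among the 8. The highest group mean was 5.52 times the lowest, against 2.35 times for Soat1, 2.14 for Npc2, 1.91 for Abcg1, 1.73 for Nr1h2, 1.71 for Lpl, 1.49 for Plin2 and 1.47 for Abca1. Within groups Soat1 varied more, with a median coefficient of variation of 44.3%, against 39.9% for Apoe. Over the 96 libraries Apoe ran from 29.8 to 674.7 CPM, with a median of 169.7 CPM.

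**Figure D1:**
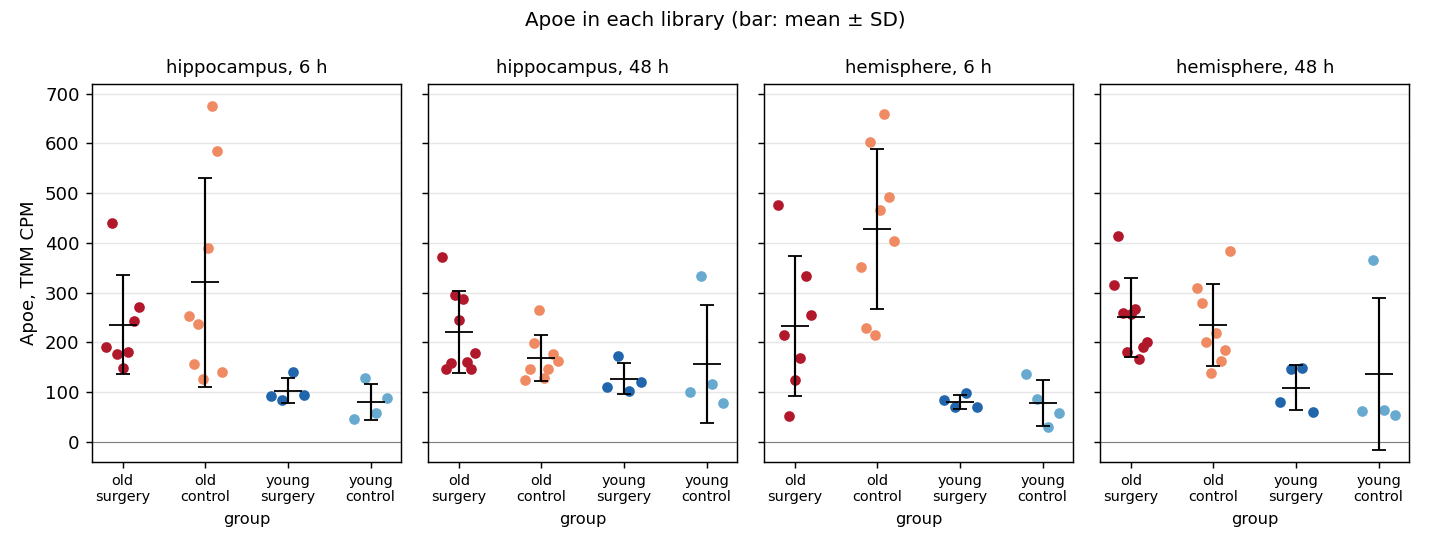
Apoe level in TMM-scaled CPM in every library (1 point each), by region, time, age and treatment, with the group mean and SD. In controls at 6 h in hemisphere, the 8 old libraries sit between 214.8 and 659.8 CPM, all above the young ones at 29.8 to 137.1 CPM.

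Old against young animals gave the clearest differences for Apoe. In hemisphere controls at 6 h, the old libraries had 352.1, 228.6, 602.5, 214.8, 466.7, 659.8, 491.9 and 404.3 CPM, and the young ones had 137.1, 85.2, 29.8 and 57.6 CPM. Every old library was above every young one, as for 0.533% of genes tested. Old controls averaged 427.6 ± 160.9 CPM (SD, n = 8), and young controls averaged 77.4 ± 45.8 CPM (SD, n = 4). The log2 fold change of 2.48 ± 0.47 (SE), or 5.60-fold, with a 95% interval of 1.52 to 3.45 on the log2 scale, passed edgeR's quasi-likelihood test with Benjamini-Hochberg adjustment (adjusted p = 0.0417). Its p ranked 5 of 12760 genes. 10 genes were called in that comparison, or 0.0784% of those tested, and no other member was among them. Since libraries are bulk samples, fewer cells of a type that express a gene and less RNA per cell cannot be told apart.

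This call was not stable to the choice of libraries. Without old control replicate 7, whose values are stepped, and the other stepped library of that fit, the log2 fold change was 2.45 and the adjusted p 0.0666. With the old animals restricted to those whose FACS numbers lie among the young ones (3 of 8 controls), it was 2.17 (unadjusted p = 0.00281, adjusted p = 0.695, edgeR). That smaller fit called 0 of 12010 genes in this comparison. When each library was left out in turn the call held in 3 of 12 cases, the value running from 2.21 to 2.91 and the unadjusted p staying under 0.05 in all 12. The lowest came without young control replicate 3, where the adjusted p was 0.218. The call remained with the share of the 15 largest gene models as a covariate (adjusted p = 0.0281).

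In the hippocampus at 6 h, the same contrast gave 2.01 ± 0.44 on the log2 scale and did not pass (adjusted p = 0.0964, unadjusted p = 0.00011, edgeR), where 0.0584% of 13703 genes were called. Old control libraries had 126.5 to 674.7 CPM with a median of 245.0 CPM, and young control libraries had 46.2, 127.9, 58.2 and 88.9 CPM. Of the 8 old libraries 7 lay above every young one, with old replicate 4 just under the highest young one. DESeq2's Wald test called this difference, at an adjusted p of 0.000557. Without the stepped libraries the value was 1.80 (unadjusted p = 0.00855, adjusted p = 0.697, edgeR). With the old animals restricted to FACS numbers among the young ones it was 1.105 (unadjusted p = 0.00934, adjusted p = 0.626, edgeR).

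After surgery at 6 h, old animals had 147.9 to 439.3 CPM of Apoe in hippocampus (median 190.6 CPM) and young animals had 92.9, 83.2, 141.1 and 94.7 CPM. All 7 old libraries lay above all 4 young ones, as for 0.452% of genes, and the log2 fold change was 1.199 ± 0.43 (unadjusted p = 0.00938). In hemisphere the old animals had 52.4 to 476.1 CPM (median 213.8 CPM) and the young ones had 83.5, 69.6, 98.8 and 70.3 CPM. Here 6 of 7 old libraries lay above every young one, with old surgery replicate 3 (52.4 CPM) under all 4, and the log2 fold change was 1.54 ± 0.45 (unadjusted p = 0.00217, adjusted p = 0.594, edgeR). In these comparisons 0.0% of genes in hippocampus and 0.00784% in hemisphere were called. Without the stepped libraries the values were 1.25 in hippocampus (unadjusted p = 0.0155, edgeR) and 1.42 in hemisphere (unadjusted p = 0.00589, edgeR).

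At 48 h the log2 fold changes of Apoe were smaller than those at 6 h in each of the 4 matching comparisons, a difference that was not tested. After surgery, hippocampus libraries had 146.0 to 371.3 CPM in old animals (median 177.5 CPM) and 110.9, 171.5, 102.1 and 121.0 CPM in young ones (log2 fold change 0.78 ± 0.31, unadjusted p = 0.0177; 0.0834% of genes called). Hemisphere libraries after surgery had 167.3 to 414.5 CPM in old animals (median 256.2 CPM) and 80.6, 146.5, 148.5 and 58.95 CPM in young ones. All 9 old ones lay above all 4 young ones, as for 0.392% of genes, and the log2 fold change was 1.21 ± 0.41 (unadjusted p = 0.00644; 0.114% of genes called).

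In controls at 48 h, the animal with high Apoe decides the value. Hippocampus libraries had 123.4 to 264.3 CPM in old controls (median 154.9 CPM) and 99.5, 332.4, 116.3 and 77.97 CPM in young controls, a log2 fold change of 0.12 ± 0.30 (unadjusted p = 0.689; 0.0834% of genes called). Without that animal it was 0.79 (unadjusted p = 0.00965, adjusted p = 0.532, edgeR). Hemisphere libraries had 138.5 to 384.1 CPM in old controls (median 209.7 CPM) and 62.1, 365.1, 63.4 and 53.4 CPM in young controls, a log2 fold change of 0.79 ± 0.41 (unadjusted p = 0.0629; 0.0898% of genes called). Without that animal it was 1.99 and passed the test (adjusted p = 0.0134, edgeR), in a fit that called 13 genes. Since the animal was singled out by its own Apoe level, the values without it are no independent evidence of an age difference. The animal also had the highest levels of its group for the lysozyme gene Lyz2, at 113.8 CPM in hippocampus against 33.6 to 38.9 CPM in the others, and at 135.1 CPM in hemisphere against 26.1 to 41.6 CPM. Its summed level of 10 border-associated macrophage markers lay within the range of the others (207.4 against 146.8 to 263.1 CPM in hippocampus, 176.7 against 137.3 to 182.9 CPM in hemisphere). Its summed astrocyte markers lay above it, at 91.4 against 33.2 to 48.8 CPM in hippocampus and 80.7 against 43.99 to 67.1 CPM in hemisphere. Its oligodendrocyte markers lay above the others in hemisphere (54.5 against 35.7 to 41.3 CPM) and within their range in hippocampus. B2m was above the others in hippocampus (412.6 against 213.9 to 254.7 CPM) and hemisphere (418 against 219.4 to 255.6 CPM), as was Cd63. Lyz2, B2m and Cd63 were picked as the genes most like Apoe over the 96 libraries, which include those of this animal. Their high levels in an animal with high Apoe are therefore no separate evidence. The summed disease-associated microglia list, described below, had 5948 against 3203 to 5360 CPM in hippocampus and 7408 against 3828 to 4978 CPM in hemisphere. The part of any of these in the Apoe value was not tested.

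All 8 age comparisons of Apoe had a log2 fold change above 0, and 6 had an unadjusted p under 0.05. The comparisons of one region and time share a fit, and the regions share animals, so these are not 8 independent tests. With the control and surgery age effects averaged, a fit added after these results were seen, the difference passed at 6 h in both regions, at 1.60 in hippocampus (adjusted p = 0.0266, edgeR) and 2.01 in hemisphere (adjusted p = 0.00432, edgeR). At 48 h it did not, at 0.45 in hippocampus and 1.00 in hemisphere (adjusted p = 0.401 and 0.142, edgeR). The averaged contrast called 14 of 13703 genes in hippocampus and 50 of 12760 in hemisphere at 6 h. At 48 h it called 78 of 11985 genes in hippocampus and 78 of 12250 in hemisphere. It was not run without the stepped libraries. In 6 h hemisphere controls, the border-associated macrophage markers summed to 98.65 to 225.0 CPM in old libraries and 152.2 to 220.3 CPM in young ones, with the median lower in old (159.9 against 180.2 CPM). The astrocyte markers summed to 34.1 to 80.7 CPM in old libraries (median 53.5 CPM) and 38.5 to 47.6 CPM in young ones (median 42.6 CPM). Gfap, an astrocyte marker, was at 0 in all 4 young libraries. Choroid plexus markers had a higher median in old libraries there. They summed to 17.99 to 217.1 CPM in old libraries (median 66.8 CPM) and 7.29 to 31.9 CPM in young ones (median 7.66 CPM), where Aqp1 was at 0. Oligodendrocyte markers summed to 27.7 to 94.7 CPM in old libraries (median 48.2 CPM) and 31.4 to 63.3 CPM in young ones (median 37.0 CPM), with Mog at 0 in both. Elsewhere the old median of choroid plexus markers was higher in hemisphere after surgery at both times and in hippocampus controls at 6 h. It was lower in hemisphere controls at 48 h (52.9 against 132.7 CPM) and in hippocampus after surgery at 6 h (75.2 against 131.3 CPM). In hippocampus at 48 h it was lower too, in controls (59.8 against 497.7 CPM) and after surgery (48.8 against 194.2 CPM). The part of any of these cell types in the Apoe difference was not tested.

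**Figure D2:**
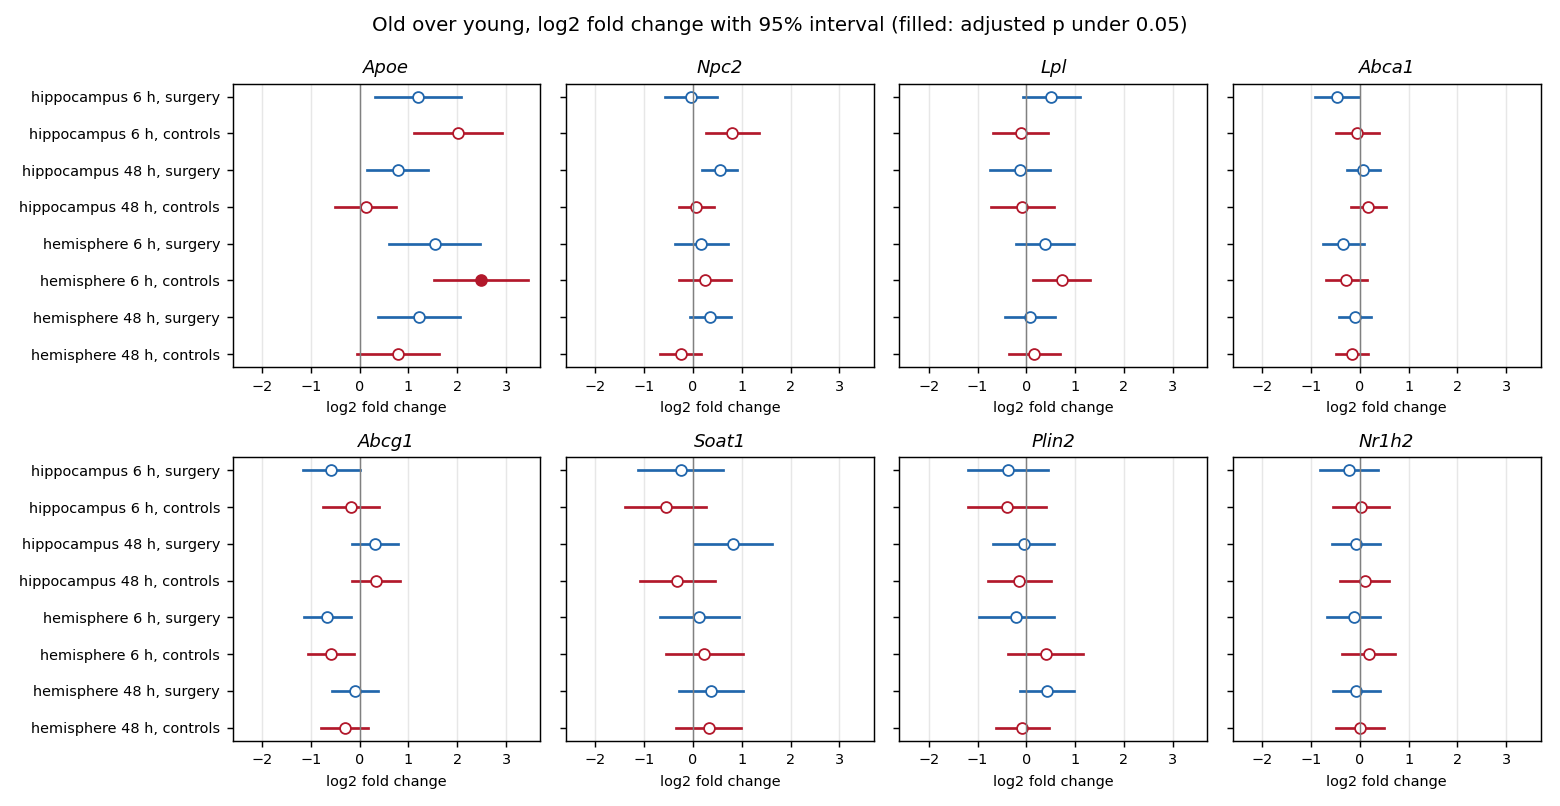
Log2 fold change of old over young for the 8 tested members, by region and time, with 95% intervals from edgeR; red marks controls, blue marks animals after surgery, and a filled symbol has an adjusted p under 0.05. Apoe lies above 0 in all 8 comparisons, and its hemisphere control value at 6 h, 2.48, is the filled one.

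Across the 8 age comparisons 1 of 64 tests of members passed, with 14 at an unadjusted p under 0.05 (21.9% of them, against 7.47% of the tests of all genes). Apoe accounts for 6 of those 14. The median log2 fold change of the 8 members ran from -0.24 to 0.24 over the comparisons, and that of all genes tested from -0.01 to 0.03.

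Among the transporters, Abcg1, which moves cholesterol to lipoprotein particles, had lower means in old animals at 6 h. In hemisphere after surgery it had 18.9 to 34.0 CPM in old libraries (median 27.6 CPM) and 33.8 to 49.01 CPM in young ones (median 42.1 CPM). The groups met at their edges, where the highest old library at 34.0 CPM passed the lowest young one at 33.8 CPM. The log2 fold change was -0.66 ± 0.23 (unadjusted p = 0.00893, adjusted p = 0.659, edgeR). It was -0.59 ± 0.23 in hemisphere controls (unadjusted p = 0.0165) and -0.58 ± 0.28 in hippocampus after surgery (unadjusted p = 0.0493), and the averaged age effect in hemisphere at 6 h was -0.62 (adjusted p = 0.11, edgeR). Without young control replicate 1 the value in hemisphere controls was -0.38, and with the old animals restricted to FACS numbers among the young ones the value in hemisphere after surgery was -0.38 too (unadjusted p = 0.199). At 48 h no age comparison of Abcg1 had an unadjusted p under 0.05. For Abca1, 1 of 8 comparisons did, in hippocampus at 6 h after surgery, where old libraries had 35.4 to 59.4 CPM and young ones had 43.6 to 82.95 CPM (-0.47 ± 0.22, unadjusted p = 0.039, adjusted p = 0.742, edgeR). The old and young libraries overlapped there.

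For Lpl, in hemisphere controls at 6 h, old libraries had 28.8 to 94.7 CPM (median 42.96 CPM) and young ones had 24.4 to 35.6 CPM (median 28.6 CPM). The groups overlapped, and the log2 fold change was 0.72 ± 0.29 (unadjusted p = 0.0187, adjusted p = 0.62, edgeR). Without old control replicate 7, the stepped library that holds 94.7 CPM, it was 0.49, and with the old animals restricted to FACS numbers among the young ones it was 0.29 (unadjusted p = 0.228). The levels of Lpl over libraries had a correlation of -0.64 with the share of counts in the 15 largest gene models.

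Npc2, the lysosomal cholesterol carrier, had a log2 fold change of 0.81 ± 0.26 in hippocampus controls at 6 h (unadjusted p = 0.00512, adjusted p = 0.39, edgeR). Old libraries there had 70.0 to 137.9 CPM (median 100.4 CPM) and young ones had 37.5 to 89.9 CPM (median 58.6 CPM). The value was 0.38 without the stepped libraries and 0.19 with the share of the 15 largest gene models as a covariate, a share whose median was 63.75% in those young controls. In hippocampus after surgery at 48 h the value was 0.55 ± 0.18 (unadjusted p = 0.00492, adjusted p = 0.3, edgeR), with 112.7 to 163.1 CPM in old libraries and 69.2 to 133.6 CPM in young ones. There the share of the 15 largest gene models had a median of 78.07% in old libraries and 73.5% in young ones. With the old animals restricted to FACS numbers among the young ones, this Npc2 value was 0.53 (unadjusted p = 0.0646, edgeR). Soat1, the cholesterol esterifying enzyme, had 0.83 ± 0.39 in that comparison (unadjusted p = 0.0431), with 20.6 to 70.1 CPM in old libraries and 11.7 to 32.0 CPM in young ones. That Soat1 value was 0.39 (unadjusted p = 0.391) with the old animals restricted to FACS numbers among the young ones. Plin2, at 1.82 to 13.98 CPM over all libraries, and Nr1h2, at 7.37 to 38.6 CPM, had no age comparison with an unadjusted p under 0.05.

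Ch25h and Nr1h3 were near the limit of detection and are given as counts. Ch25h summed to 148 counts over 64 old libraries, 20 of them at 0, and to 12 counts over 32 young libraries, 23 of them at 0. At least 1 count was found in 31 of 32 old animals and in 7 of 16 young ones. In hemisphere controls at 6 h the sums were 48 counts in 8 old libraries and 1 count in 4 young ones. In a fit without the filter, the log2 fold change there was 4.03 (unadjusted p = 0.00044, adjusted p = 0.374, edgeR), and no comparison of Ch25h passed. Nr1h3 summed to 73 counts in the old libraries, with 34 of 64 at 0, and to 35 counts in the young ones, with 16 of 32 at 0. A library at 0 allows up to 3 counts, equal to 0.552 to 1.63 CPM, for counting error only. Ch25h overlaps the predicted gene model Gm26902 on the opposite strand, and the counting strand is not given, so its counts may include reads of that model.

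**Figure D3:**
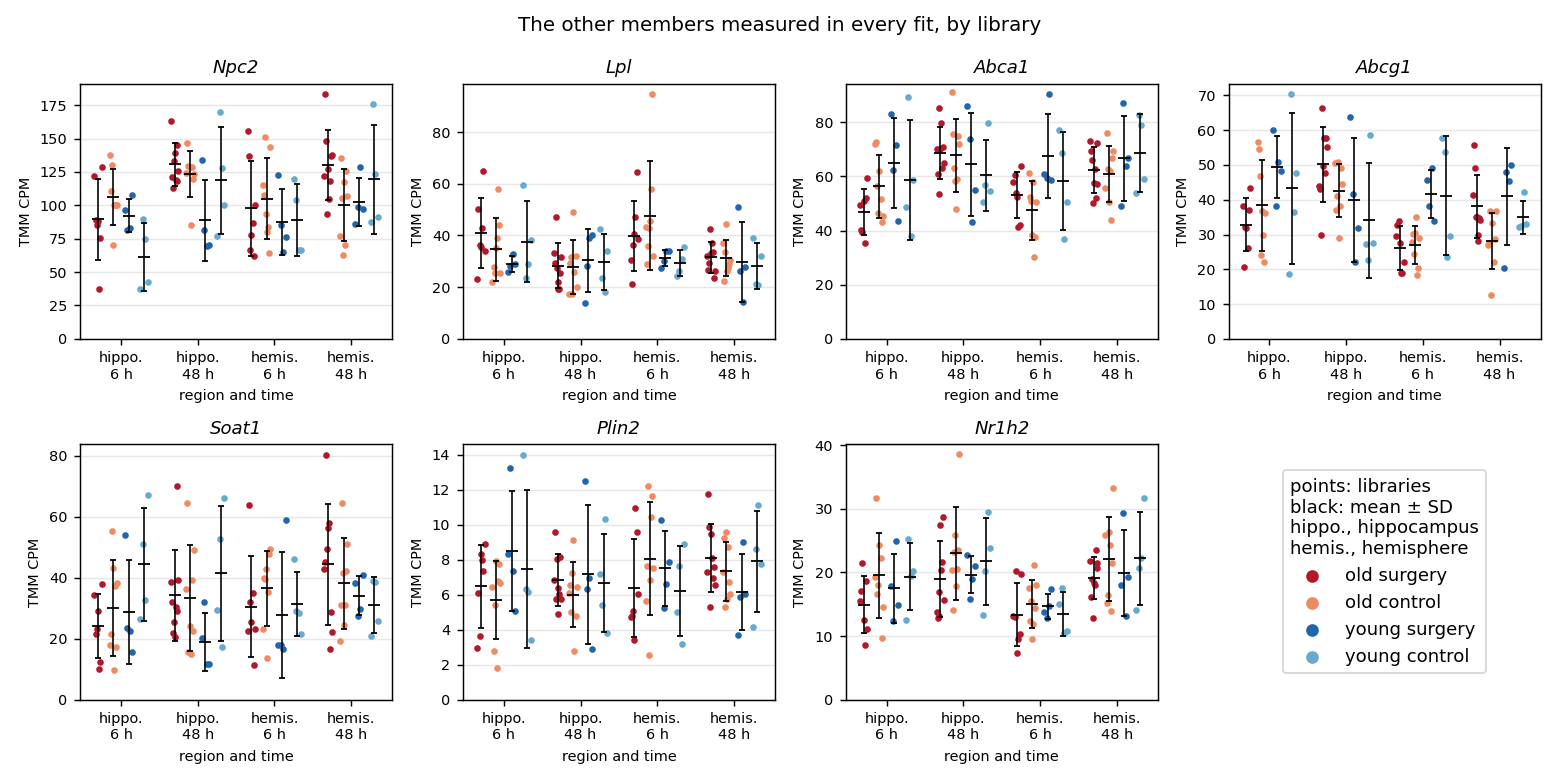
Levels of the other members measured in every fit, in TMM-scaled CPM, by region, time, age and treatment, with 1 point per library. Old and young libraries overlap for Plin2 and Nr1h2 in every region and time. Ch25h and Nr1h3 are not shown.

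Surgery against control was the question of the series title. Over 8 comparisons (2 ages, 2 regions, 2 times), 0 of 64 tests of members passed edgeR's test. DESeq2 and limma-voom called 0 as well, and 5 had an unadjusted p under 0.05 (7.81% of them, against 6.04% of the tests of all genes). At 6 h the share of all genes called was 0.337% in old hemisphere, 0.0627% in young hemisphere, 0.0876% in old hippocampus and 0.0365% in young hippocampus, and at 48 h it was 0.0% in all 4 comparisons.

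Of the 5, the lowest p belonged to Apoe in old hemisphere at 6 h. The 7 surgery libraries had 476.1, 213.8, 52.4, 124.0, 168.0, 333.1 and 255.6 CPM, and the 8 control libraries had the values given above, 214.8 to 659.8 CPM. The groups overlapped. The log2 fold change was -0.89 ± 0.35 (unadjusted p = 0.0177, adjusted p = 0.457, edgeR), with a 95% interval of -1.61 to -0.17. It was -0.97 without the stepped libraries, and it ran from -1.16 to -0.71 when each library was left out in turn. In all libraries of that comparison, border-associated macrophage markers summed to 190.4 to 584.2 CPM after surgery and 98.65 to 225.0 CPM in controls. Astrocyte markers had a median of 78.8 CPM after surgery and 53.5 CPM in controls. Choroid plexus markers were lower, with 5.53 to 120.3 CPM after surgery (median 11.5 CPM) and 17.99 to 217.1 CPM in controls (median 66.8 CPM), and oligodendrocyte markers had a median of 29.9 CPM after surgery and 48.2 CPM in controls. The part of these cells was not tested. In old hippocampus at 6 h the Apoe value was -0.44 ± 0.34, in old animals at 48 h it was 0.39 ± 0.24 in hippocampus and 0.09 ± 0.31 in hemisphere, and in the 4 young comparisons it ran from -0.33 to 0.37. The 95% intervals over the 8 comparisons of Apoe reached from -1.61 to 1.32.

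The other 4 belonged to Abcg1, Npc2 and Soat1. In old hemisphere at 48 h, Abcg1 had 28.2 to 55.9 CPM after surgery and 12.5 to 36.9 CPM in controls (0.44, unadjusted p = 0.0272), and Npc2 had 93.4 to 183.7 CPM after surgery and 62.7 to 135.7 CPM in controls (0.38, unadjusted p = 0.0289). Both pairs of groups overlapped. With the share of the 15 largest gene models as a covariate these values were 0.24 for Abcg1 (unadjusted p = 0.144) and 0.18 for Npc2 (unadjusted p = 0.13). Npc2 in young hippocampus at 6 h had 81.8 to 107.5 CPM after surgery and 37.5 to 89.9 CPM in controls (0.61, unadjusted p = 0.0497). That value was 0.17 without the stepped libraries and -0.01 with the share of the largest gene models as a covariate. Soat1 in young hippocampus at 48 h had 11.7 to 32.0 CPM after surgery and 17.4 to 66.1 CPM in controls (-1.10 ± 0.44, unadjusted p = 0.0201), and again the groups overlapped. Intervals for the remaining members reached from -1.03 to 0.82 for Lpl, -0.63 to 0.70 for Abca1, -1.02 to 1.16 for Plin2 and -0.87 to 0.75 for Nr1h2.

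**Figure D4:**
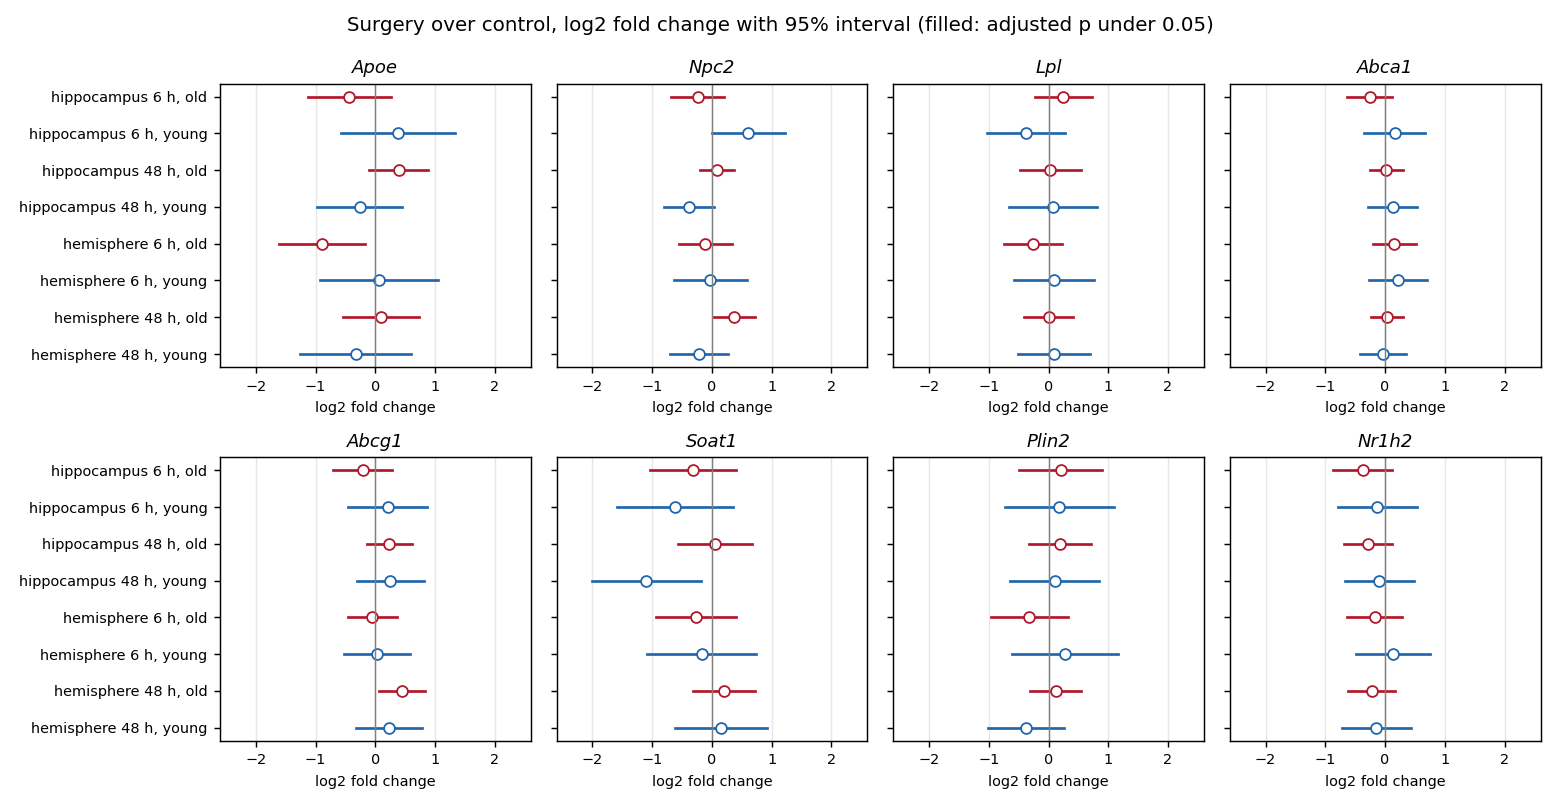
Log2 fold change of surgery over control for the 8 tested members, by region and time, with 95% intervals from edgeR; red marks old animals and blue marks young ones, and a filled symbol would have an adjusted p under 0.05. No symbol is filled, and the interval of Apoe in old hemisphere at 6 h, -1.61 to -0.17, is the only one for Apoe that does not reach 0.

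The surgery effects were also compared between ages and times, and no member passed. Between ages (4 comparisons, 0.0% of genes called in each), 3 of 32 tests had an unadjusted p under 0.05 (9.38%, against 5.93% of the tests of all genes). DESeq2 and limma-voom called 0. For Apoe the effect in old minus that in young was -0.81 in hippocampus (unadjusted p = 0.168) and -0.95 in hemisphere (unadjusted p = 0.122) at 6 h. Between times (4 comparisons), 1 of 32 tests had an unadjusted p under 0.05 (3.12%, against 6.73% of the tests of all genes). For Apoe the effect at 48 h minus that at 6 h was 0.84 in old hippocampus (unadjusted p = 0.0544; 0.0% of genes called) and 0.98 in old hemisphere (unadjusted p = 0.0512; 0.17% of genes called). In the young comparisons 0.0% of genes were called in hippocampus and 0.00707% in hemisphere.

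Hippocampus was compared with hemisphere within animals, in 10 comparisons of which 2 are means over the 4 groups of a time. No member passed in 80 tests by edgeR, DESeq2 or limma-voom, and 8 had an unadjusted p under 0.05 (5.03% of the tests of all genes did). Of all genes, 0.0297% were called in old controls at 48 h, 0.0371% in the mean at 48 h and 0.0% in the other 8 comparisons. Old controls held 6 of the 8. Apoe had 126.5 to 674.7 CPM in hippocampus and 214.8 to 659.8 CPM in hemisphere at 6 h (-0.57 ± 0.26, unadjusted p = 0.0366). At 48 h it had 123.4 to 264.3 CPM in hippocampus and 138.5 to 384.1 CPM in hemisphere (-0.45 ± 0.22, unadjusted p = 0.0473). Regions overlapped at both times. Abcg1 went the other way in old controls, at 0.46 at 6 h (unadjusted p = 0.0401) and 0.63 at 48 h (unadjusted p = 0.0115). With the share of the 15 largest gene models as a covariate, Abcg1 was at 0.28 at 48 h (unadjusted p = 0.106), and Apoe at -0.67 (unadjusted p = 0.00216). The adjusted p of these 4 lay between 0.701 and 0.882 (edgeR). Of the lists of other genes, 1 gene was called between regions, the MHC class I gene H2-D1 of the disease-associated list, at -0.60 in the mean at 48 h (adjusted p = 0.016, edgeR).

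**Figure D5:**
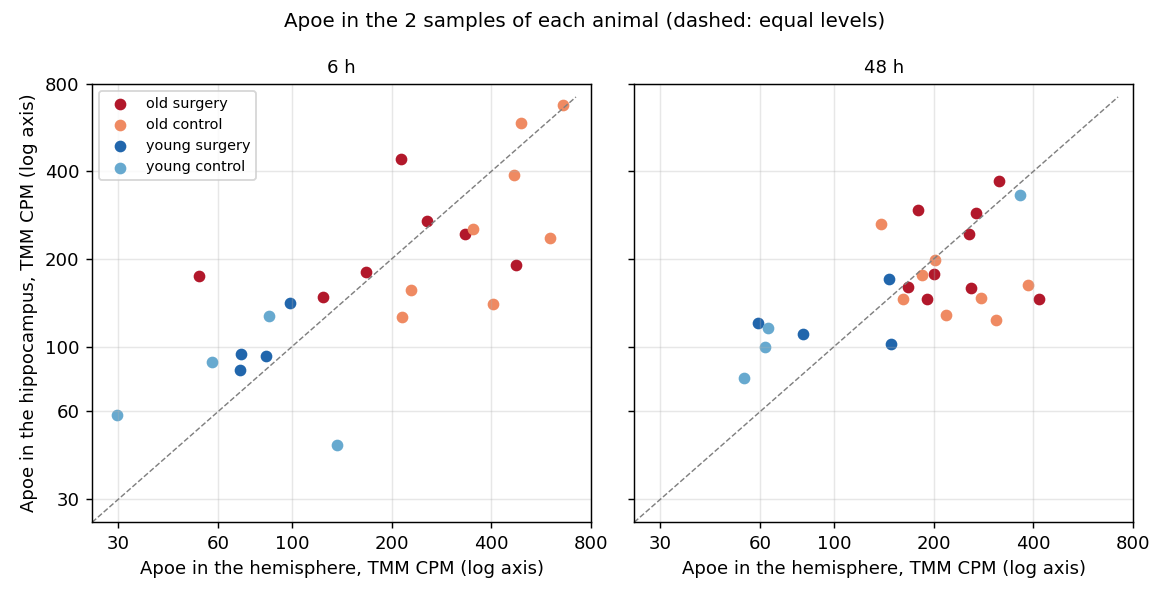
Apoe level in hippocampus against hemisphere for each of the 48 animals, in TMM-scaled CPM on log axes. Over animals, deviations from the group means had a Pearson r of 0.41, and the young 48 h control with 332.4 CPM in hippocampus and 365.1 CPM in hemisphere stands apart from its group.

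Apoe was also compared between the regions of an animal. Deviations of log2 CPM from the group mean had a Pearson r of 0.413 (permutation p = 0.0164, adjusted p = 0.131) and a Spearman rho of 0.377 (permutation p = 0.0177, adjusted p = 0.141) over 48 animals. There were 8 such relations, 1 per member, and none passed the adjustment. Without the 2 animals farthest from the median r was 0.307, and it was 0.312 in the 32 old and 0.604 in the 16 young animals.

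Of the 2604 genes with a mean of at least 4 on the log2 CPM scale, those most like Apoe over the 96 libraries were Lyz2 (Pearson r = 0.872), B2m (0.772), Cd63 (0.726), H2-Q7 (0.694) and Cxcl16 (0.631). Lyz2 encodes lysozyme, B2m and H2-Q7 are parts of MHC class I molecules, Cd63 is a tetraspanin of late endosomes and Cxcl16 is a chemokine. The r with Lyz2 was 0.803 after the group means were removed. Npc2 was most like the lysosomal genes Cd68 (0.885) and Ctss (0.875). Lpl was most like D10Wsu102e (0.857), Olfr365 (0.853), Vmn1r18 (0.852), Hsd3b2 (0.851) and Vmn1r197 (0.85). How much of the Lpl counts is background was not tested. Abca1 was most like the receptor gene Csf1r (0.778), and Abcg1 most like Fcrls (0.781), the marker used in the sort, with Csf1r at 0.777. Abca1 and Abcg1 had an r of 0.736 with each other. Libraries share depth and composition: r with the share of the 15 largest gene models was 0.874 for Npc2, 0.743 for Csf1r, 0.543 for Abca1, 0.465 for Abcg1, 0.155 for Apoe and -0.637 for Lpl. The r of Apoe with the summed markers of 11 cell types ran from -0.266 for border-associated macrophages to 0.285 for oligodendrocytes, with 0.0996 for choroid plexus and 0.0349 for astrocytes. With the group means removed these were, in that order, -0.126, 0.183, 0.026 and 0.152.

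Beyond the 10 members, 7 lists of lipid genes (lipoproteins and their receptors, LXR partners and targets, oxysterol synthesis, cholesterol synthesis, lipid droplets, lysosomal lipid handling, fatty acid uptake and oxidation) had 0 genes called in the 8 age and 8 surgery comparisons by edgeR. In the age comparisons, at an unadjusted p under 0.05, the lists in that order had 5 of 82, 8 of 118, 2 of 72, 5 of 126, 4 of 128, 7 of 168 and 4 of 104 gene tests higher in old animals, and 3, 8, 1, 1, 7, 3 and 8 lower. After surgery they had 0, 5, 2, 5, 8, 5 and 10 tests higher than in controls, and 4, 5, 2, 8, 3, 4 and 1 lower. Of the tests of all genes, 7.47% in the age comparisons and 6.04% in the surgery comparisons had an unadjusted p under 0.05 in either direction. A list of 23 genes known from disease-associated microglia, a state in which Apoe is a known marker, had 4 of 166 gene tests called higher in old animals and 0 lower. At an unadjusted p under 0.05 it had 80 tests higher and 0 lower, and its median log2 fold change over the comparisons ran from 0.24 to 0.71. The list was chosen with earlier results of these data known, and its direction is no independent evidence. The called genes were Lilrb4a, an inhibitory receptor, at 2.46 ± 0.40 in 6 h hemisphere controls (adjusted p = 0.0131, edgeR), Cd52 at 1.03 ± 0.20 in 48 h hemisphere in both controls and operated animals (adjusted p = 0.0336 and 0.0297, edgeR) and the tetraspanin Cd9 at 0.80 ± 0.15 in 48 h hippocampus after surgery (adjusted p = 0.0143, edgeR).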

How the data were processed

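RNA was sequenced in 96 microglia libraries (Smartseq2, per the series' design text). The authors deposited expected counts per Ensembl gene model as whole numbers, 1 column per library, and all were used. DESeq2 1.36.0 under R 4.2.1 and build mm10 come from the submitters' processing notes. No source used here gives the aligner, counter, annotation release or strand setting. Counts were analysed as deposited, with edgeR 4.0.16 (quasi-likelihood F-test, TMM, filterByExpr with a minimum count of 10, robust) in R 4.3.3, and Benjamini-Hochberg adjustment over all genes tested with a threshold of 0.05. Each region and time was 1 fit of 4 groups. Regions were compared with the animal as a block. Alternatives used DESeq2 1.42.0 and limma 3.58.1. Of 54532 identifiers, 54409 had a symbol. Levels compared between genes are per kilobase of exon. Likeness used log2 CPM with a prior count of 2. The 15 largest gene models stayed in the library sizes. Scripts were tested on simulated data. The named genes are the 10 members, every called gene of the other lists and genes among the 5 most like a member. The members and lists were chosen with earlier results of these data known. The count test had been planned for unprocessed counts and was used on the deposited estimated counts too. The floor for a library at 0 covers counting error only, and the intervals of fold changes come from the spread between animals.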

Additional observations from a re-analysis of the deposited data

Results flagged for a closer look

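In 12 of 128 groups of libraries (8 members in 16 groups), the highest or lowest library lay far from the rest of its group by Dixon's test. For independent, normally distributed values chance gives about 1 in 20. The test was run on CPM without a log, and some flags share an animal or a library, so it cannot show an excess. For Apoe the flagged values were 439.3 CPM in old surgery hippocampus at 6 h (replicate 2, others 147.9 to 270.3), and 332.4 and 365.1 CPM in hippocampus and hemisphere of the same young control animal at 48 h (replicate 2). For Lpl they were 94.69 CPM in old control hemisphere at 6 h (replicate 7, a stepped library, others 28.8 to 57.86) and 49.08 CPM in old control hippocampus at 48 h (replicate 5, others 17.31 to 32.01). That hippocampus library also had the lowest Npc2 of its group, 85.26 CPM (others 120 to 146.7). Abca1 had 90.63 CPM in young surgery hemisphere at 6 h (replicate 3, others 58.79 to 60.81).

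Abcg1 had 20.32 CPM in young surgery hemisphere at 48 h (replicate 1, others 45.45 to 50.13). In 1 young control animal at 48 h (replicate 3) it had 58.63 CPM in hippocampus (others 22.76 to 27.61) and 42.14 CPM in hemisphere (others 32.28 to 33.14). Soat1 had 58.79 CPM in young surgery hemisphere at 6 h (replicate 4, others 16.73 to 17.99) and 70.12 CPM in old surgery hippocampus at 48 h (replicate 8, others 20.63 to 39.15).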

How the results depend on the processing

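Of 287 counts of called members recomputed under an alternative, 282 stayed within 1.5 times the value reported. The reported count was 0 in every comparison but 1, so nearly all of these were a 0 that stayed 0, which says little about stability. Of 274 recomputed log2 fold changes (members with an unadjusted p under 0.05, and Apoe in controls at 48 h) 267 kept their direction and side of the threshold. For old against young controls in hemisphere at 6 h the count of 1 became 0 without the filter (Apoe 2.42, adjusted p = 0.178, edgeR), with only animals whose FACS numbers lie among the young ones, and without stepped libraries, and ran from 0 to 1 when each library was left out in turn. In hippocampus controls at 6 h the count was 1 in place of 0 with DESeq2's Wald test (2.001) and with the averaged age effect (1.60). In hemisphere controls at 48 h the count ran from 0 to 1 when each library was left out. Among these results, values that reversed were Npc2 after surgery in young hippocampus at 6 h (-0.0071) and Npc2 in hippocampus against hemisphere of young controls at 6 h (0.17), both with the share of the 15 largest gene models as a covariate, and Apoe in hippocampus controls at 48 h (-0.0886 to 0.787 when each library was left out in turn). Smaller effects outside these also changed sign with that covariate, such as Apoe after surgery in old hemisphere at 48 h (-0.13, against 0.09). The cause was not tested. Surgery and control share replicate numbers, but samples with the same number had correlations of -0.297 to 0.362 in their deviations, so the numbers were not taken as pairs; the regions of 1 animal, which are paired, had -0.511 to 0.328, so this check cannot show that pairing is absent. With the replicate as a block, Apoe in old hemisphere at 6 h was -1.01 (adjusted p = 0.513, edgeR) and no call of a member changed. The fit of age with a replicate block was not run, since replicates are nested within age. Depth limits Ch25h and Nr1h3, with 160 and 108 counts in all.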
